A study of Mus musculus with 3 samples.

Results

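CTCFL, also known as BORIS, is the germ cell paralog of the zinc finger protein CTCF, and its binding was mapped here at mouse histone genes chosen by name. The members were the protein-coding GENCODE genes on mm9 whose symbols begin with Hist1h, Hist2h, Hist3h or Hist4h, which gave 67 of 22367 protein-coding genes. Another 3 genes with such names (Hist3h2bb-ps, Hist1h2aj and Hist2h3c2) are annotated as pseudogenes and were left out. ChIP-sequencing was done in ES cells that carry a Tet-responsive CTCFL-V5-GFP transgene on a ROSA26-rtTA background. In ES_CTCFL_V5_DOX the cells received doxycycline for 3 days, were sorted for GFP and were precipitated with V5 antibody, whereas ES_CTCFL_V5_NODOX was neither induced nor sorted and served as the control. Each condition is represented by 1 library, the values carry no replicate error, and CTCF binding (ES_CTCF) was not analysed here. CTCFL was therefore supplied by a transgene, in cells outside the testis, at a level set by the induction and the sort. The deposited list gives 7436 CTCFL peaks of the induced cells by start and end only, without heights, read numbers or p-values, and the depth behind a peak is unknown. This list is longer than the set of CTCFL-binding sites reported in the paper, and the reason is not given in the sources used here.

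The replication-dependent genes among the members supply the histones that package newly copied DNA during S phase. The core histones H2A, H2B, H3 and H4 form the nucleosome, and the linker histone H1 binds where DNA enters and leaves it. These genes are short, mostly lack introns and stand close together, and many H2A and H2B genes lie head to head and share 1 promoter region. Their mRNAs end in a stem loop in place of a poly(A) tail. Several genes encode the same protein, and their sequences are correspondingly similar.

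The 67 genes comprised 6 H1, 19 H2A, 18 H2B, 11 H3 and 13 H4 genes. With at most 200 kb between neighboring members they fell into 6 clusters on 4 chromosomes. The largest, Hist1, was split into a first group of 23 genes (chr13:21807632-22135545), a second group of 31 genes (chr13:23622919-24026720) and the lone gene Hist1h2al (chr13:51298057-51298434). Hist2 held 9 genes (chr3:96023839-96082924), Hist3 held Hist3h2ba and Hist3h2a (chr11:58762413-58770176), and Hist4h4 stood alone (chr6:136752589-136752900).

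Of the 67 histone genes, 5 had a CTCFL peak at the promoter, with its midpoint between 2 kb upstream and 1 kb downstream of a TSS. These were the H4 genes Hist2h4 and Hist1h4f, the linker histone gene Hist1h1e, the H2A gene Hist3h2a and, through a distant upstream start, the H2B gene Hist1h2be. Sequences at the peaks of Hist1h4f, Hist1h1e and Hist3h2a are given first because they show what CTCFL covered. They are from the mm9 genome, 5′ to 3′ on the strand of the gene. For Hist1h4f and Hist1h1e the 200 bases that end 1 base before the TSS are shown, and for Hist3h2a the 30 bases around the best match inside the peak. In Hist1h4f (chr13:23643518-23643717, minus strand) and Hist3h2a (chr11:58768474-58768503, plus strand) the capitals mark the best match to a CTCFL matrix, described with the matrix results. In Hist1h1e (chr13:23714372-23714571, minus strand), whose peak held no such match, they mark, from left to right, the H1 word AAACACA, the box that binds the factor NF-Y, which reads CCAAT, and the TATA box in the form TATAAA.
Hist1h4f: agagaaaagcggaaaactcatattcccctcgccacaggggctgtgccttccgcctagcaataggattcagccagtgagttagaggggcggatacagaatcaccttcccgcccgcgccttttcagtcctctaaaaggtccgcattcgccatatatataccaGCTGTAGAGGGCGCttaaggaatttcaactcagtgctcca
Hist1h1e: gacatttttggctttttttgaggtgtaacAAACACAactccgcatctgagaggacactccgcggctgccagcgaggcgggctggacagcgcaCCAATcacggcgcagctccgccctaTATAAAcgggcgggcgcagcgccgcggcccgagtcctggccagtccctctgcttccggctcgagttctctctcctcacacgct
Hist3h2a: atcatcccGCGCCACCTGCAGTtggccatc

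The peaks at the H4 genes were centered almost on the start of transcription. The Hist2h4 peak (492 bp) had its midpoint 26 bp upstream of the TSS, at -26 bp, and the Hist1h4f peak (chr13:23643349-23643827, 479 bp) at -71 bp. Both peaks covered the TSS, and both midpoints lay in the intergenic sequence before the gene. The Hist1h1e peak (chr13:23714360-23714769, 410 bp) had its midpoint at -193 bp and also covered the TSS. The Hist3h2a peak (chr11:58768383-58768931, 549 bp) lay downstream, at 470 bp, and did not reach the TSS at position 58768187, which the annotation also gives for the ubiquitin ligase gene Trim17. It was the widest of the 4, and the widths, from 410 to 549 bp, lay around the median of 454 bp over all 7436 peaks.

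Hist1h2be was counted only because of its annotation. The annotation gives this H2B gene a transcript that starts 35168 bp before the start codon, and this outer start lies on the same side of the Hist1h1e peak as the Hist1h1e gene, with the peak at -1571 bp. When distances were taken from the start codon, 4 histone genes had a peak and Hist1h2be was not among them.

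The share of bound histone genes was 7.46% (5 of 67, 95% Wilson interval 3.23 to 16.3). Among all protein-coding genes 11.2% had a promoter peak (2515 of 22367, interval 10.8 to 11.7), a value inside the histone interval. A difference was therefore not detectable with this number of genes. Because neighboring genes share promoter regions and sequence, they are not independent, and the intervals cover counting error only. The genes nearest to the limits of the promoter interval were Hist1h2be inside, at -1571 bp, and the H1 gene Hist1h1d outside, whose nearest peak, the one at Hist1h4f, lay at -3313 bp.

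All histone types but H3 had a bound gene, H2B only through the outer start of Hist1h2be. A promoter peak was found at 1 of 6 H1 genes, 1 of 19 H2A genes, 1 of 18 H2B genes, 0 of 11 H3 genes and 2 of 13 H4 genes. The intervals of these shares overlapped, from 3.01 to 56.4% for H1, from 4.33 to 42.2% for H4 and from 0 to 25.9% for H3. By cluster, the first group of Hist1 had 0 of 23 genes bound (interval 0 to 14.3%) and the second had 3 of 31 (9.68%, 3.35 to 24.9). The 11.2% of all protein-coding genes lay inside both intervals. Hist2 had 1 of 9 and Hist3 1 of 2, and the lone genes Hist1h2al and Hist4h4 had none. Hist3h2ba, the H2B gene next to Hist3h2a, had its nearest peak 6244 bp downstream of its start, at Hist3h2a itself.

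**Figure D1:**
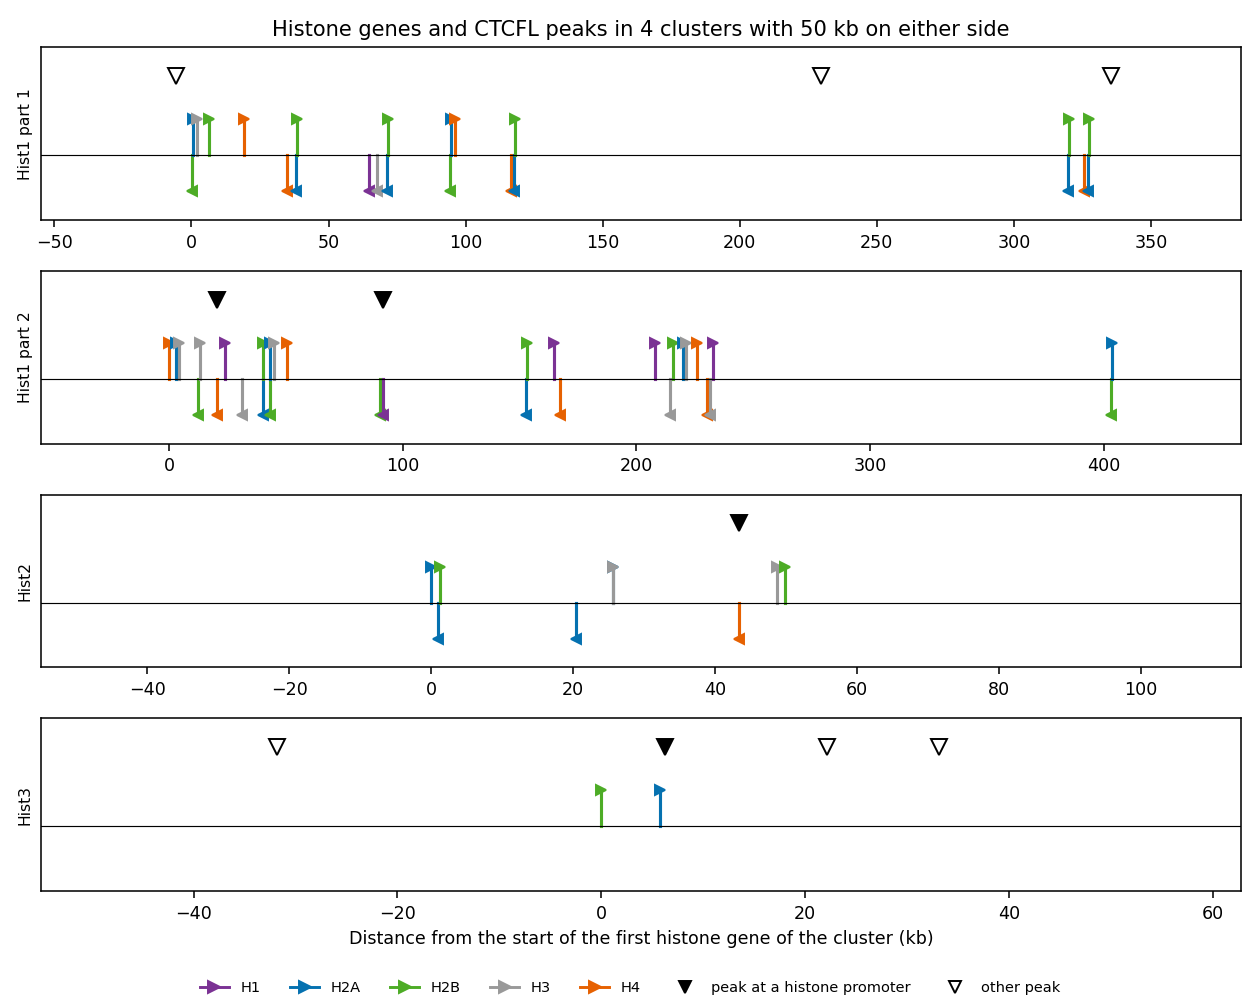
Maps of 4 histone clusters with 50 kb on either side, with the distance from the first histone gene in kb on the horizontal axis. Each vertical line is the TSS of a histone gene, colored by type and pointing up on the plus strand and down on the minus strand, filled triangles are CTCFL peaks at a histone promoter and open triangles other peaks. The first group of Hist1 has 3 peaks, of which 0 are at a histone promoter, while the second group has 2 peaks and both are at histone promoters.

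Within the genes themselves, 1 of 67 members held the midpoint of a peak, Hist3h2a, where the midpoint falls in an untranslated part of the exon that the annotation also gives to Trim17. Of all protein-coding genes 15.0% held a midpoint, but these genes are far longer, with a median of 15427 bp against 530 bp for the histone genes. Among genes of at most 1000 bp the share was 0.738% (14 of 1897), and 0 of the 51 histone genes of that length held a midpoint (interval 0 to 7.0%). When any base of a peak inside the gene was counted, the number rose to 4, namely Hist2h4, Hist1h4f, Hist1h1e and Hist3h2a (5.97%, against 17.5% of all genes by the same rule). At Hist2h4, Hist1h4f and Hist1h1e the peaks extended from the promoter past the start codon, which lies 7, 5 and 5 bp after the TSS. At Hist1h1e only the first bases of the transcript were covered, whereas at Hist2h4 and Hist1h4f the peak reached further into the coding sequence. The Hist3h2a peak lay within the gene.

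Head-to-head gene pairs, with starts at most 1000 bp apart, are the typical arrangement of H2A and H2B genes. There were 13 such pairs among the members, 12 of an H2A with an H2B gene and 1 of an H2B with an H3 gene (Hist1h2bh and Hist1h3f). None of the 13 shared promoters carried a peak (0 of 13, interval 0 to 22.8%), whereas 16.8% of the 797 head-to-head pairs of protein-coding genes did (134 pairs, interval 14.4 to 19.6). The background share lies within the histone interval, and a difference was not detectable at this number of pairs. The annotated starts of the H2A and H2B genes in a pair were 168 to 306 bp apart. At Hist1h2ba and Hist1h2aa, the pair 306 bp apart, both annotated starts are the start codon itself. This was so for 9 of the 67 members (13.4%, against 11.9% of all genes), whose true start of transcription may lie further upstream.

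All 6 clusters with 50 kb on either side held 10 peaks in 1399256 bp. This is 7.15 peaks per Mb (exact Poisson interval 3.43 to 13.1), above the 2.91 per Mb of the whole genome. The clusters are also rich in genes, and their 10 peaks stood among 100 protein-coding genes, whereas the genome held 33.2 peaks per 100 genes. The direction of the comparison thus depended on whether peaks were counted by length or by gene. Hist3 on chromosome 11 had 4 of the 10 peaks in 107764 bp, the first group of Hist1 had 3, the second had 2, Hist2 had 1, and Hist1h2al and Hist4h4 had 0. On chromosome 13 as a whole the density was 2.06 per Mb, and in the first and second groups of Hist1 it was 7.01 (interval 1.45 to 20.5) and 3.97 (0.481 to 14.3), with the chromosome's value inside both intervals. Hist3 had 37 per Mb (interval 10.1 to 95), above the 5.04 of chromosome 11. Without Hist3 the other clusters held 6 peaks, or 4.65 per Mb (interval 1.70 to 10.1), and the genome value of 2.91 lay inside this interval.

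The other 6 peaks lay near genes that are not histone genes or between genes. In Hist3 they were at the butyrophilin-related gene Butr1 (midpoint at -820 bp), in a coding exon of Trim17 and in a coding exon of Trim11. In the first group of Hist1, 1 peak lay at 273 bp in the zinc finger gene Zfp184. Another lay 6084 bp downstream of the start of Hist1h2bl, the H2B gene at one edge of this group, and a further one 7996 bp downstream of the start of Hist1h2bj, the H2B gene at its other edge. The first group thus had a peak beyond each edge, and the Zfp184 peak lay between its first and last histone gene. None of its 23 histone promoters had a peak (interval 0 to 14.3%). The 11.2% of all protein-coding genes lay inside this interval, and a difference was not detectable. Of the 33 other protein-coding genes in the clusters with flanks, 3 had a promoter peak (Butr1, Trim17 and Zfp184).

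Both larger groups of Hist1 held stretches without a peak. The longest at the first group spanned 235326 bp between peak midpoints, of which 229622 bp lay between the first and last histone gene, and contained 18 histone starts. From the Hist1h1e peak toward higher coordinates the next peak was 924555 bp away. Of this stretch 312156 bp lay inside the second group, and the rest beyond its last histone gene. It held 15 histone starts, ending with the testis-expressed pair Hist1h2ba and Hist1h2aa. In these stretches 72.6% and 91.6% of 36-base windows occurred only once in the genome. Chromosome 13 as a whole held only 240 peaks in 116370904 bp (2.06 per Mb), so stretches without a peak are common along it. The lengths of gaps elsewhere on the chromosome were not compared.

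The distance from a histone TSS to the nearest peak had a median of 29879 bp (quartiles 10254 and 100997.5 bp), compared with 60902 bp (14966 and 210625.5 bp) over all protein-coding genes. Within 2 kb a peak was found for 7.46% of histone genes and 12% of all genes, and within 40 kb for 50.7% and 41.7%. By type the medians were 16586 bp for H3, 21077 bp for H2B, 40446 bp for H4, 42457 bp for H2A and 71841 bp for H1. Members of a cluster share their nearest peaks, and the ranges of the types overlapped, as H4 genes alone ran from 26 to 365383 bp. The farthest was Hist4h4, which encodes the same class of protein as the closest, Hist2h4.

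**Figure D2:**
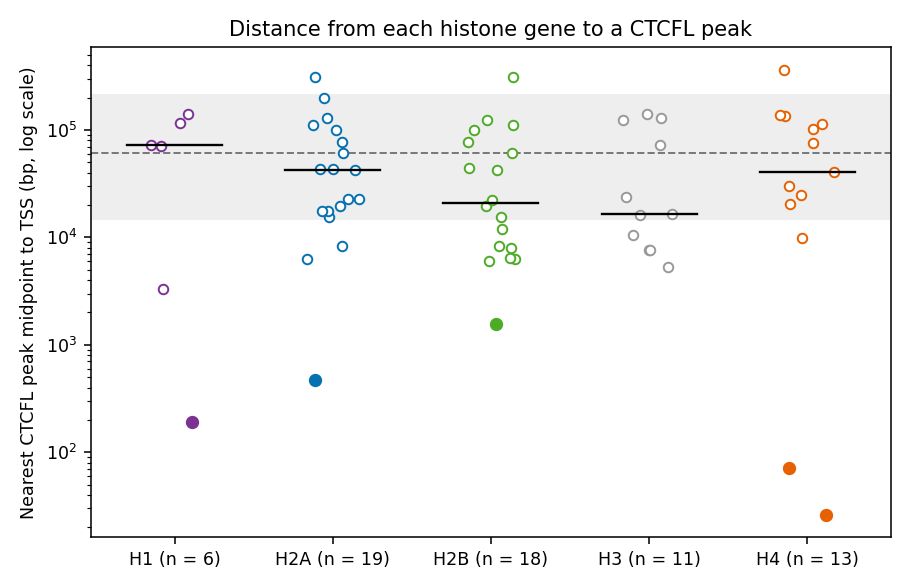
Distance from the TSS of each histone gene to the midpoint of the nearest CTCFL peak, in bp on a log scale, by histone type. Filled points have a promoter peak, black lines are the median of each type, and the dashed line and grey band are the median (60902 bp) and quartiles of all protein-coding genes; the types overlap, and the 5 filled points lie between 26 and 1571 bp.

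Similar copies of a gene limit where 36-bp reads can be placed, and the authors describe keeping unambiguously mapped reads in their comparative analysis. The 36-base windows within 250 bp of each TSS were therefore searched in the whole genome. At 55 of 67 histone promoters (82.1%, interval 71.3 to 89.4) under 90% of the windows were unique, compared with 16.8% of all promoters. Under 50% of the windows were unique at 10 histone promoters (14.9%, interval 8.31 to 25.3), compared with 6.98% of all. Below the 90% limit were 17 of 19 H2A, 14 of 18 H2B, 10 of 11 H3, 11 of 13 H4 and 3 of 6 H1 promoters, and the median share of unique windows was 68.5 to 74.0% for the core histone types and 94.0% for H1. The head-to-head pairs Hist1h2bq with Hist1h2ao and Hist1h2ap with Hist1h2br had 0% unique windows.

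Among the 12 histone promoters with at least 90% unique windows, 3 had a peak (25%, interval 8.89 to 53.2), compared with 12.8% of such promoters over all genes. These were Hist2h4, Hist3h2a and the outer start of Hist1h2be. Among the 55 repeated histone promoters 2 had a peak, Hist1h4f and Hist1h1e (3.64%, interval 1.0 to 12.3), compared with 3.56% of repeated promoters over all genes. In both classes the share of all genes lay inside the histone interval. The bound promoters themselves had 76.6% (Hist1h4f), 81.8% (Hist1h1e), 93.6% (Hist2h4) and 100% (Hist3h2a) unique windows. Unique promoters without a peak included the H1 genes Hist1h1a, Hist1h1b and Hist1h1t, the last of which is expressed in spermatocytes, each with 100% unique windows. These classes rest on the windows within 250 bp of the TSS, whereas peaks were counted from 2 kb upstream to 1 kb downstream. Over that longer interval all bound genes were above 90% unique windows. The values were 91.2% (Hist3h2a), 91.8% (Hist1h4f), 93.3% (Hist1h2be), 93.8% (Hist1h1e) and 99.0% (Hist2h4). Unbound histone genes lay on both sides of 90%, and other genes were not searched over this interval. What part the repeated sequence had in the absence of peaks was not tested.

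Promoters rich in CpG are more often bound by CTCFL over the genome, and the histone promoters were split in the same way. Of the 67, 24 were rich in CpG (35.8%, interval 25.4 to 47.8), with at least 55% GC and an observed over expected CpG of at least 0.6, compared with 44.5% of all. Over all genes 17.9% of CpG-rich promoters and 5.96% of the others had a peak. Of the CpG-rich histone promoters 2 of 24 were bound (8.33%, interval 2.32 to 25.8), and of the others 3 of 43 (6.98%, 2.40 to 18.6). A single exon was annotated for 61 of the 67, of which 4 were bound (6.56%, interval 2.58 to 15.7). Over all single-exon genes 3.43% had a peak (98 of 2855, interval 2.82 to 4.17), and this share lay inside the histone interval.

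**Figure D3:**
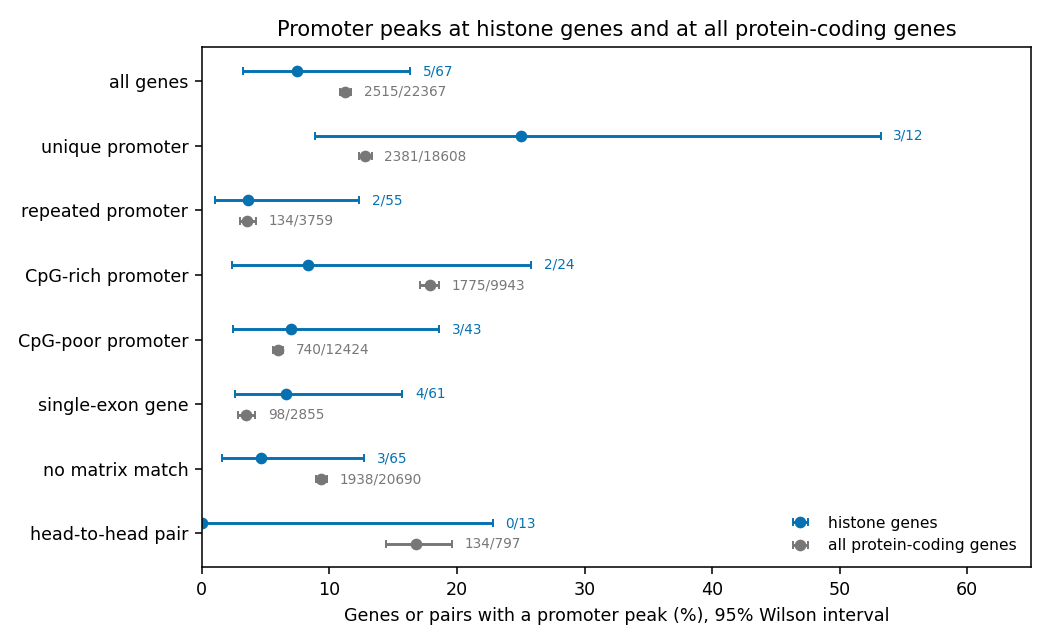
Percent of genes or head-to-head pairs with a promoter peak among histone genes (blue) and all protein-coding genes (grey), for all genes and for classes of promoter, with 95% Wilson intervals and counts. The histone intervals are wide and contain the share of all genes in each row, as for unique promoters with 25% against 12.8%.

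To compare the sequences, a matrix of 14 positions was built from the peaks outside the histone clusters, starting from AGGNGGC, the core of the CTCF motif. A match was a score above 12.44 bits, which 5% of flanking windows pass, and 57.5% of all 7436 peaks had one. Of the 4 peaks at histone genes 3 had a match, with scores of 16.30 at Hist2h4, 14.56 at Hist1h4f and 15.93 at Hist3h2a, while the best score in the Hist1h1e peak was -2.86. Matches were sought over the whole peak, whereas the matrix came from the central 200 bp of peaks. Of these matches only the one at Hist1h4f was centered within 100 bp of the peak midpoint, at 38 bp. Whether CTCFL contacted the matched sites was not tested. At the stricter score of 17.06, passed by 1% of flanking windows, 0 of the 4 had a match, compared with 34.6% of all peaks passing it. Of the 2345 peaks at protein-coding promoters 55.6% passed the lower score and 28.3% the stricter one. The matrix was built from 2768 sites in peaks outside the clusters, and the peaks in these shares include many that supplied those sites. The 4 histone peaks supplied none, and they are also too few for a comparison.

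In the 300 bases from 250 before to 50 after the TSS, 2 of 67 histone promoters had a match (2.99%, interval 0.822 to 10.2), compared with 7.5% of all promoters (7.16 to 7.85). These were Hist2h4 and Hist1h4f, and both were bound (2 of 2, interval 34.2 to 100%). The Hist1h4f site is printed 5′ to 3′ on its own strand, with the capitals marking the positions aligned to the core.
Hist1h4f (chr13:23643544-23643557, minus strand): gctgtAGAGGGCgc
This site was centered at -33 bp from the TSS. Over all genes, 34.4% of promoters with a match had a peak (577 of 1677) and 9.37% of those without. The 34.4% lay inside the interval of the 2 histone promoters with a match, and a difference was not detectable. Of the 65 histone promoters without a match 3 had a peak (4.62%, interval 1.58 to 12.7). The highest scores below the limit belonged to unbound H1 genes, with 12.36 at Hist1h1b and 11.82 at Hist1h1a, followed by 10.43 at Hist1h2ba, and these promoters had at least 97.2% unique windows.

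The match in the Hist3h2a peak lay in the coding sequence, and the same search in the coding sequence of every histone gene with 1 coding exon found this site to be shared by the H2A family. Of the 19 H2A genes 17 had a match, against 2 of 6 H1, 0 of 14 H2B, 0 of 11 H3 and 0 of 13 H4 genes. Among 1125 other genes with 1 coding exon of 300 to 700 bp the share was 7.38% (83 genes, interval 5.99 to 9.05). All 17 H2A matches read on the strand opposite to the gene and lay 234 to 249 bp after the start codon. The H2A genes are copies of each other, so the 17 are not independent. The sites below show the family site, the variant inside the Hist3h2a peak, the variant in Hist2h2ac and the best sites of the H2A genes without a match, Hist1h2aa and Hist2h2ab. The capitals are as above.
Hist1h2ai (chr13:21808533-21808546, minus strand; the same in 15 H2A genes): gctgcAGGTGGCgc
Hist3h2a (chr11:58768482-58768495, minus strand): actgcAGGTGGCgc
Hist2h2ac (chr3:96024512-96024525, plus strand): gctgcAGATGGCgc
Hist1h2aa (chr13:24026573-24026586, minus strand): gctgcAGGTGGCga
Hist2h2ab (chr3:96024081-96024094, minus strand): gttgcAGATGGCgc
The 15 identical sites scored 16.40, Hist3h2a 15.93, Hist2h2ac 13.26 and, below the limit, Hist1h2aa 11.98 and Hist2h2ab 5.58.

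A CTCFL peak covered this site in Hist3h2a alone. Its center lay 169 bp from the midpoint of the peak, and within 100 bp of it 66.3% of 36-base windows were unique. At the other 16 H2A matches the share of unique windows ranged from 0 to 39.8%, with a median of 0, and the nearest peak midpoint was 6611 to 197747 bp away. The 2 H2A genes whose best site scored below the limit, Hist1h2aa and Hist2h2ab, had 94.0% and 58.4% unique windows around it. Whether CTCFL bound the copies in repeated sequence was not tested.

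The matches in H1 genes lay in more unique sequence. The coding sequence of Hist1h1c held a match of 16.29 (chr13:23830751-23830764, minus strand), with 96.4% unique windows around it, and the nearest peak was 116193 bp away. The match in Hist1h1e scored 14.91 (chr13:23714275-23714288, minus strand) with 84.9% unique windows, and its center lay 283 bp from the midpoint of the promoter peak, beyond the edge of that peak. Both are printed with the capitals marking the core.
Hist1h1c: tccgcAGGGGGCgc
Hist1h1e: gccgcAGGTGGCgc
Of these H1 matches, both in mostly unique sequence, neither lay inside a peak.

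**Figure D4:**
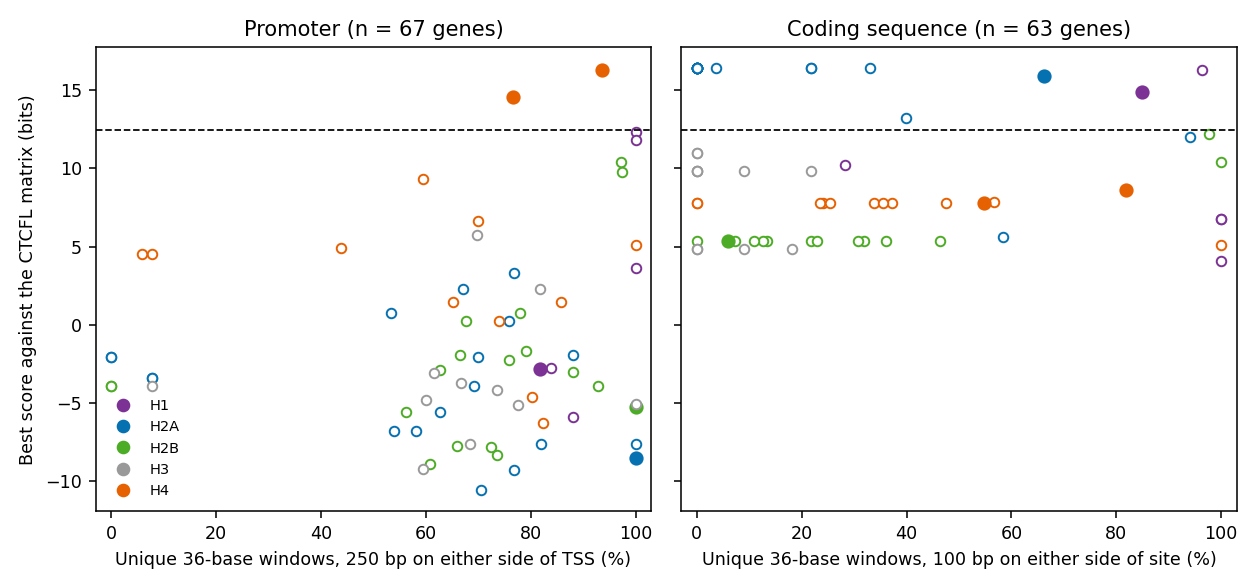
Best score against the CTCFL matrix in bits (vertical axis) against the percent of unique 36-base windows, for the promoter of each of 67 histone genes (left) and the best coding site of each of 63 (right). Colors are histone types, filled points are genes with a promoter peak, and the dashed line is the limit of 12.44; at the left 2 H4 promoters lie above it, both filled, and at the right most H2A sites lie above it at 0 to 39.8% unique windows.

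The promoter words of histone genes were present by type, and bound and unbound genes both carried them. In the same 300 bases, on both strands, TATAAA was found at 38 of 67 histone promoters (56.7%, against 13.4% of all) and CCAAT at 57 (85.1%, against 37.9%). TTTGCAT, the octamer word read by the Oct-1 factor encoded by Pou2f1, was found at 17 (25.4%, against 4.40%), of which 8 of 18 were H2B and 7 of 19 H2A promoters. The H1 word AAACACA was found at 10 (14.9%, against 6.42%), including 5 of 6 H1 promoters, and GGTCCG, part of the H4 element, at 15 (22.4%, against 9.78%), including 12 of 13 H4 promoters. The last 2 words were chosen after the sequences had been seen. AGGNGGC was found at 14 (20.9%, interval 12.9 to 32.1, against 31.8% of all).

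Promoters with a peak were also counted by word. Of the 38 histone promoters with TATAAA 1 had a peak (Hist1h1e), of the 57 with CCAAT 4, of the 17 with TTTGCAT 1 and of the 15 with GGTCCG 2. Of the 10 with AAACACA 1 had a peak, and of the 14 with AGGNGGC 1. Over all genes the shares with a peak were, in the same order, 5.89%, 10.5%, 7.31%, 16.1%, 7.46% and 16.5%. Each lay within the interval of the histone genes with the word. The Hist1h4f promoter was among those with a peak that carried GGTCCG, a word also found at 10 H4 promoters without a peak.

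Genes that act on histones outside the clusters were counted in the same way. Of 14 replacement and variant histone genes found in the annotation, 3 had a promoter peak (21.4%, interval 7.57 to 47.6), against 11.2% of all genes. These were H2afv, one of the genes for H2A.Z (midpoint at -275 bp), H2afy2, which encodes a macroH2A (95 bp), and H3f3b, one of the genes for H3.3 (662 bp). The other H3.3 and H2A.Z genes, H3f3a and H2afz, had peaks at 1686 and 1102 bp, beyond the downstream limit of the interval.

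Of 21 genes for histone gene transcription and histone mRNA processing 5 had a promoter peak (23.8%, interval 10.6 to 45.1). They were Pou2f1 (-105 bp), the U7 snRNP gene Lsm11 (-86 bp), the 3′ end processing genes Cpsf2 (25 bp) and Sympk (-680 bp), and Coil (30 bp), which encodes the Cajal body protein coilin. Neither Npat, the coactivator of histone genes, nor Slbp, which encodes the stem loop binding protein, had one, with nearest peaks at 33806 and -5309 bp. Of 24 histone chaperone genes 4 had a promoter peak (16.7%, interval 6.68 to 35.9). These were the H3-H4 chaperone genes Asf1a (-65 bp) and Asf1b (-58 bp), the H3.3 chaperone gene Hira (899 bp) and Hjurp (-171 bp), which encodes the chaperone of the centromeric H3. The Hjurp peak was 1958 bp wide and ranked 10 by width of 7436. In each of the 3 lists the share of all genes lay inside the interval of the list.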

How the data were processed

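The authors sequenced 36-bp reads, mapped them to NCBI Build 37.1 with ELAND and also describe alignment to mm9 (BOWTIE), removal of ambiguous and duplicate reads, and peak calling by MACS. The deposited list holds the start and end of each peak in bp on mm9, as positions and in no other unit, and which of these steps made it is not given in the sources used here. All 7436 peaks were used, 0 columns of values were left unmapped, and a peak was placed by its midpoint. Genes, TSSs of protein-coding transcripts and exons were from GENCODE M1 on the same build. The histone genes and the gene lists were chosen with earlier results of these data known. The rule for genes named was every histone gene with a peak, each gene of a cluster of 1 to 3, the gene nearest to each cluster peak and bound genes of the other lists; H1, H2A and list genes named for comparison were chosen after their values were seen. There was 1 library per condition and no test between conditions. Shares are given with 95% Wilson intervals and densities with exact Poisson intervals. The matrix was built from 2768 sites. The counting and site search were tested on simulated data. Python 3.11.15, numpy 2.4.6, scipy 1.17.1, pandas 2.3.3, numba 0.67.0 and matplotlib 3.10.9 were used. Alternatives varied the promoter interval, the TSSs, the flanks, the merging and width of peaks, the limit of unique windows and the matrix score. The promoter sequence of 1 bound gene is not reported here.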

Additional observations from a re-analysis of the deposited data

How the results depend on the processing

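Of 48 alternatives for 12 results, 40 stayed within 1.5 times the reported count or within its interval. With peaks at or above the median width, 3 histone genes kept a promoter peak (Hist1h1e and Hist1h2be had none), and with peaks of at least 90% unique windows, 3 did (Hist1h4f and Hist3h2a had none). H2B genes with a promoter peak numbered 0 with 1 kb on either side of the TSS and 0 with the start codon in place of the TSS, an alternative chosen after seeing the data. Any base of a peak in the gene gave 4 genes (17.5% of all genes). At a limit of 50% unique windows 10 promoters counted as repeated (14.9%, against 6.98% of all), and at the score passed by 1% of flanking windows 0 histone peaks had a match (34.6% of all peaks). Without the Hist3 cluster, also chosen after seeing the data, 6 peaks and 4.65 per Mb were left. Over the alternatives for the promoter count, the histone share was 4.48 to 7.46% and that of all genes 7.52 to 12%. The clusters held 8 peaks with flanks of 25 kb and 11 with flanks of 100 kb. No paired analysis was possible because there was 1 library per condition. With 5 bound genes at 4 peaks, no difference between types or clusters could be resolved, and peaks in repeated sequence may be missed.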
